A study of Rattus rattus with 8 samples.

Results

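Whisker follicles of 2 rats exposed to a simulated blast of 200 kPa (XH1 and XH3) were compared with those of 3 sham rats at 0 kPa (C1, C2 and C3). These 5 rats were taken from the 8 of the series by the shock wave pressure in the deposited labels, and the other rats had been exposed to 145 kPa (M2 and M3) or 175 kPa (H1). All were young adult male Sprague-Dawley rats. The shock wave was delivered in a tube to the head alone, while the animals were restrained and under isoflurane. Whisker follicles were pulled a day or a week later. The sham rats were anaesthetized as well and received no shock wave. Which rat belonged to which interval is not given in the sources used here. RNA of several follicles per rat was pooled and hybridized to 1 array, so each value describes 1 animal and a mixture of cells, and a change in the share of a cell type and a change in RNA per cell cannot be told apart.

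The hair follicle is a small organ of the skin in which matrix keratinocytes divide at the base, around a dermal papilla. They harden into the shaft and its inner sheath, which an outer root sheath encloses. Whisker follicles also hold a blood sinus and a dense supply of sensory nerve endings. The arrays name probes by accession, and gene symbols could be given only to the 9 genes that the study chose for quantitative PCR and listed with their accessions. These genes were chosen on the same arrays and are therefore not independent evidence of their own direction. No keratin or other marker of the follicle was among them, so the labelled tissue was not checked against markers here.

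Leaving out controls, an array had 58717 spots for 30367 different probes. Their median processed signal was 280.5 in C1, 90.9 in C2 and 105.8 in C3, and it was 114.1 in XH1 and 116.9 in XH3. C1 was the brightest array of the 5 before normalization. The share of probes well above background, a call that the scanner software makes for each spot, was 70.4%, 63.8% and 65.9% in C1, C2 and C3, and 66.2% and 66.0% in XH1 and XH3. Both blast arrays thus lay within the range of the sham arrays in both measures. All values given from here on are log2 intensities after quantile normalization over the 8 arrays, on which a difference of 1 is a doubling, and the tests are limma fits across all probes unless another test is named.

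At 200 kPa, 5 of the 9 qPCR genes passed an unadjusted p under 0.05 against sham: the mRNA levels of Triap1, Arpc4 and Pea15a were higher, and those of Stat5a and Serpina1 were lower, with differences on the log2 scale from 0.40 (Triap1) to 0.86 (Pea15a) for the higher genes, and of -0.69 (Stat5a) and -1.0 (Serpina1) for the lower ones. None of the 9 passed after Benjamini-Hochberg adjustment over the 30360 probes tested, where 0 probes passed (0%) and the smallest adjusted p was 0.654. Across all probes, 1869 passed the unadjusted threshold (6.16%), of which 1202 were higher (3.96%) and 667 lower (2.2%) at 200 kPa. If no probe differed, 5% would be expected under this threshold. The methods' one-way analysis of variance does not share the spread between probes. Run on these 5 rats, where the study had 8, it put 1373 probes under the unadjusted threshold and 0 under the adjusted one. The 1373 were 4.52% of the probes tested, a share below the 5% expected if no probe differed. Among the 9 genes, 3 had both 200 kPa rats above all sham rats, against 13.5% of the probes with a value on all 5 arrays, and 4 had both below all sham rats, against 10.5%. An exact two-sided permutation of the 5 rats allows 10 splits into 3 and 2, so its smallest p is 0.1 and no single gene could pass 0.05 by it.

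**Figure D1:**
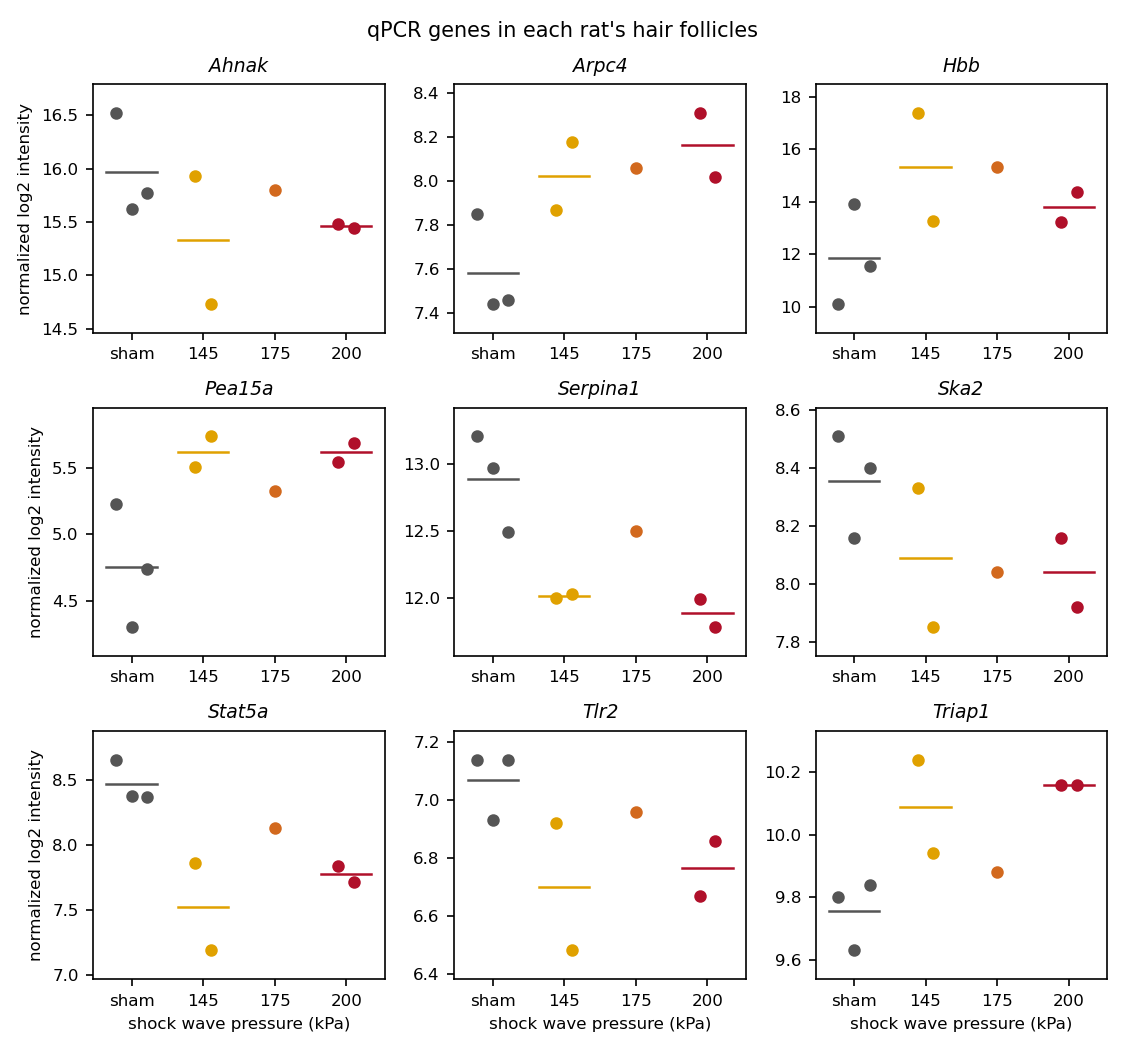
Normalized log2 intensity of the 9 qPCR genes (vertical axis, brightest probe of each) by shock wave pressure in kPa (horizontal axis); points are rats, and lines are means of groups with more than 1 rat. The 2 rats at 200 kPa lie above the 3 sham rats for Triap1, Arpc4 and Pea15a, below them for Stat5a, Serpina1, Tlr2 and Ahnak, and overlap with them for Hbb and Ska2.

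Stat5a encodes a transcription factor that is phosphorylated by Janus kinases downstream of prolactin, growth hormone and interleukin receptors. Its probe (NM_017064) read 8.66, 8.38 and 8.37 in C1, C2 and C3, and 7.84 and 7.72 in XH1 and XH3. The sham rats lay close together, and so did the blast rats, with no overlap. The difference was -0.69 (SE 0.15, adjusted p = 0.717), and it had the lowest adjusted p of the 9 genes. With 10 spots per array this was also among the most repeated probes, and the median SD between its spots within an array was 0.071, less than the SD of 0.16 between the sham rats. Without XH3 the difference was -0.62 and no longer passed the unadjusted threshold. The 145 kPa rats read 7.86 and 7.19, also below all sham rats, and H1 read 8.13.

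Tlr2 encodes a cell surface receptor for bacterial lipopeptides that signals through Myd88 to NF-kappa-B. Its probe (NM_198769) read 7.14, 6.93 and 7.14 in C1, C2 and C3, and 6.67 and 6.86 in XH1 and XH3. The groups did not overlap, but XH3 lay only slightly below C2. The difference was -0.30 (SE 0.14, adjusted p = 0.820), and it did not pass the unadjusted threshold. With normexp it was -0.18, and with array quality weights it was -0.35 (SE 0.11) and passed. Pea15a encodes a small phosphoprotein with a death effector domain that binds the MAP kinases ERK1 and ERK2 and keeps them in the cytoplasm. Its probe (NM_001013231) read 5.23, 4.30 and 4.74 in C1, C2 and C3, and 5.55 and 5.69 in XH1 and XH3. Both blast rats were above all sham rats, and the sham rats differed more among themselves than the blast rats did. The difference was 0.86 (SE 0.31, adjusted p = 0.809). The probe was well above background on 4 of the 5 arrays, while those of the other 8 genes were so on all 5. The median SD between its 2 spots within an array was 0.112. The highest was 0.637, above that of any other probe of the qPCR genes with more than 1 spot. Pea15a no longer passed the unadjusted threshold when C2, C3, XH1 or XH3 was left out, with differences of 0.64, 0.86, 0.93 and 0.79. The call was lost under 10 of 19 alternatives, among them the methods' one-way analysis of variance, the floor of 8, eBayes with trend and robust, and each of the 3 blocks (title number, slide row and slide side). With normexp the difference was 0.33 (SE 0.13).

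Triap1 encodes a mitochondrial intermembrane space protein that is induced by p53 and takes part in the transport of phosphatidic acid. Its brighter probe (NM_001126099), with 10 spots per array, read 9.80, 9.63 and 9.84 in C1, C2 and C3, and 10.16 in both XH1 and XH3. The blast rats were alike and above every sham rat. The difference was 0.40 (SE 0.12, adjusted p = 0.804). A probe with 1 spot for the same accession read 8.27, 8.41 and 8.40 in the sham rats, and 8.69 and 8.74 at 200 kPa. It gave a difference of 0.35 (SE 0.11), again without overlap, so both probes of this gene had the same direction and a like size. Left with XH1 or XH3 alone at 200 kPa, Triap1 kept a difference of 0.40 and did not pass the unadjusted threshold. The call was also lost when dim probes were filtered out and with the number in the titles as a block (0.34). The median SD between spots of the brighter probe was 0.083, against an SD of 0.11 between the sham rats.

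Ska2 encodes a subunit of the complex that holds kinetochores to spindle microtubules in mitosis. Its brighter probe (NM_001009624) read 8.51, 8.16 and 8.40 in C1, C2 and C3, and 8.16 and 7.92 in XH1 and XH3. The ranges met at the level of C2 and XH1. The difference was -0.31 (SE 0.17, adjusted p = 0.852), or -0.19 without XH3, and a dimmer probe of the gene gave -0.04 (SE 0.19), so the probes of this gene did not show a like size.

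Arpc4 encodes a subunit of the Arp2/3 complex, which starts branches on actin filaments. Its probe (NM_001106615) read 7.85, 7.44 and 7.46 in C1, C2 and C3, and 8.31 and 8.02 in XH1 and XH3. The groups did not overlap, and C1 was the sham rat nearest to the blast rats. The difference was 0.59 (SE 0.20, adjusted p = 0.808). With normexp it was 0.35 (SE 0.13). It was 0.51, 0.52, 0.44 and 0.73 without C2, C3, XH1 and XH3, and passed the unadjusted threshold in none of these. In all, 9 of 19 alternatives lost the call, the methods' one-way analysis of variance, eBayes with trend and robust and the filter for probes well above background among them. Ahnak encodes a very large scaffold protein under the plasma membrane that binds the complex of annexin A2 and S100a10. Its brightest probe (NM_001191951) read 16.52, 15.62 and 15.77 in C1, C2 and C3, and 15.48 and 15.44 in XH1 and XH3. C1 stood well above the other sham rats, and C2 was only slightly above the blast rats. The difference was -0.51 (SE 0.32, adjusted p = 0.855), and without C1 it was -0.24 (SE 0.11). The 3 other probes of Ahnak gave differences of -0.27, -0.29 and -0.44, each with both blast rats below all sham rats. The last of these was the only Ahnak probe at an unadjusted p under 0.05, with 9.61, 9.56 and 9.45 in C1, C2 and C3 against 8.99 and 9.21 in XH1 and XH3.

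Serpina1 encodes alpha-1-antitrypsin, a secreted inhibitor of neutrophil elastase made mainly by the liver and also by epithelia. Its probe (NM_022519) read 13.21, 12.97 and 12.49 in C1, C2 and C3, and 11.99 and 11.78 in XH1 and XH3. This was the largest difference among the 5 genes that passed the unadjusted threshold, and C3 was the sham rat nearest to the blast rats. The difference was -1.0 (SE 0.26, adjusted p = 0.785). It lost the unadjusted call without C2 (-0.97), XH1 (-1.11) or XH3 (-0.90). The 145 kPa rats, the higher of which read 12.03, lay near the 200 kPa rats, and H1, at 12.50, lay near C3.

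Hbb encodes the beta chain of haemoglobin and is a marker of red cells. Its brighter probe (NM_033234) read 10.11, 13.90 and 11.55 in C1, C2 and C3, and 13.24 and 14.38 in XH1 and XH3. C2 lay between the blast rats, so the groups overlapped. The difference was 1.96, with an SE of 1.26 that was larger than for any of the other 8 genes (adjusted p = 0.855). The dimmer probe read 4.80, 8.78 and 5.96 in the sham rats and 8.08 and 9.49 at 200 kPa, a difference of 2.27 (SE 1.37), with the same order of rats. Without C2 the difference of the brighter probe was 2.98 (SE 0.75), which passed the unadjusted threshold and not the adjusted one (adjusted p = 0.808). With the number in the titles as a block, the difference was also 2.98 (SE 0.15, adjusted p = 0.745), with the same outcome. Without C1 it was 1.08 (SE 1.06) and without XH3 1.39 (SE 1.77), neither of which passed. The follicles thus differed widely in this mRNA within the sham group. Hbb was the only member of the list of 21 red cell markers that could be named, and the part of blood in the other differences was not tested.

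In qPCR of the study, Triap1, Arpc4, Pea15a and Stat5a, 4 of the 5 genes that passed the unadjusted threshold, were measured with the following primers, which are printed because they mark the transcripts that these probe names stand for. They are given 5′ to 3′.
Triap1 forward: tgtgtccagaaagcaatcaagg
Triap1 reverse: caggcaggtcaagaggagtt
Arpc4 forward: gaacgacacaacaagccagag
Arpc4 reverse: ccttttccttctcattcctgct
Pea15a forward: cagtggggaaggaaggtcaa
Pea15a reverse: cccgtaacaagggcataaagg
Stat5a forward: cccgtgtcagttgtatccct
Stat5a reverse: accactactttagccagaccc
These primers were 20 to 22 bases long.

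Among accessions without a symbol, those with the largest differences were sought where the brightest probe was well above background in every rat of a group, did not overlap between the groups and passed the unadjusted threshold. Of 22408 accessions, those of the qPCR genes included, 1014 met this, 645 higher and 369 lower at 200 kPa. The largest rise in fold was that of NM_057103, which read 5.26, 5.69 and 8.01 in C1, C2 and C3, and 9.54 and 8.76 in XH1 and XH3. The difference was 2.83 (SE 0.97, adjusted p = 0.808), and C3 lay much nearer to the blast rats than to the other sham rats. A dimmer probe of this accession gave 3.22, also without overlap, and did not pass the unadjusted threshold. With array quality weights the brighter probe gave 1.70 and lost the call, as it did in 10 of 19 alternatives in all. The brighter probe passed the unadjusted threshold with C3 left out (3.67), but not without C1 (2.30), C2 (2.51), XH1 (2.43) or XH3 (3.22). Next came ENSRNOT00000051732, with 4.08, 5.92 and 6.66 in C1, C2 and C3, and 8.11 and 8.15 in XH1 and XH3. The difference was 2.58 (SE 0.84, adjusted p = 0.805), and here too C3 was the sham rat nearest to the blast rats. With normexp the difference was 1.53 (SE 0.32). This call was lost without C2 (2.76), XH1 (2.60) or XH3 (2.56), and in 8 of 19 alternatives in all, the floor of 8 and each of the 3 blocks among them.

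The largest fall was that of NM_001109578, which read 13.72, 12.46 and 11.80 in C1, C2 and C3, and 9.96 and 5.81 in XH1 and XH3. The blast rats differed more from each other than the sham rats did. The difference was -4.78 (SE 1.45, adjusted p = 0.804), and it was -2.70 without XH3 and -6.86 without XH1. It no longer passed the unadjusted threshold without C1 (-4.25), C2 (-4.88), C3 (-5.21) or XH3. NM_001008874 read 12.77, 10.53 and 13.38 in C1, C2 and C3, and 8.98 and 8.87 in XH1 and XH3, a difference of -3.30 (SE 0.95, adjusted p = 0.804). The blast rats were alike, and the sham rats were spread, with C2 lowest. It lost the unadjusted call without C1 (-3.03), C3 (-2.73), XH1 (-3.35) or XH3 (-3.25). None of these 4 accessions passed the unadjusted threshold in the methods' one-way analysis of variance.

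The 1202 probes that were higher at 200 kPa had a median difference of 0.74, and the 667 that were lower had a median of -0.88. Of the probes that passed the unadjusted threshold, 1349 (821 higher, 528 lower) showed a difference of at least 1.5-fold and 91 of at least 4-fold. In the 4-fold class the lower ones were more numerous, 57 against 34. Over all probes tested, the median difference was 0.008. The share that passed varied with brightness. With the probes parted into 4 classes of equal size by mean intensity, 4.24% of the dimmest class passed the unadjusted threshold, 8.62% of the next, 6.71% of the one above and 5.06% of the brightest. More probes were higher than lower in every class, with 238 against 84 in the dimmest and 233 against 151 in the brightest.

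**Figure D2:**
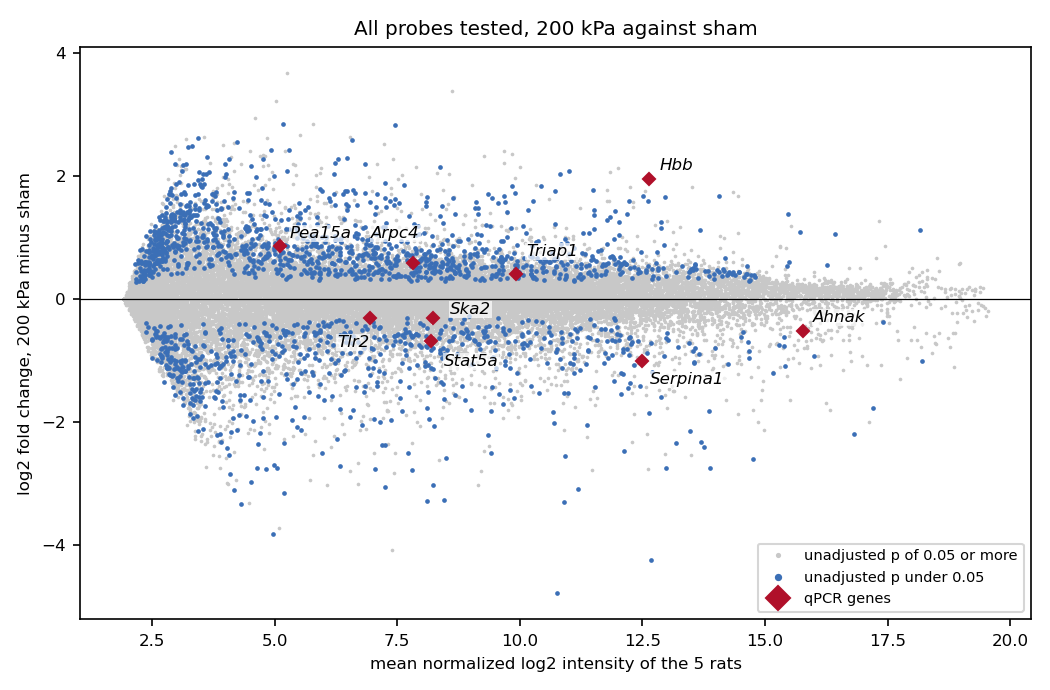
Difference between the 200 kPa and sham means (vertical axis, log2) against the mean log2 intensity of the 5 rats (horizontal axis) for the 30360 probes tested; blue points passed an unadjusted p under 0.05 and red diamonds are the 9 qPCR genes. Most differences lie near 0 at every intensity, and the 9 genes lie among the probes of like brightness.

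Detection was compared as well. In both 200 kPa rats and in no sham rat, 65 probes were well above background, 54 of them with an accession. The opposite pattern, well above background in all 3 sham rats and in neither 200 kPa rat, was found for 80 probes, 70 of them with an accession. These probes were selected by their difference in detection and were not tested as a set. Most probes were detected alike, since 18130 were well above background on all 5 arrays and 7592 on none. By kind of name, the share at an unadjusted p under 0.05 was 6.30% for RefSeq mRNAs, 7.11% for RefSeq model mRNAs, 5.37% for Ensembl transcripts and 5.93% for probes without an accession.

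Probes of 1 accession measure the same transcript on the same RNA and show how far a difference depends on the probe. Among 1849 detected accessions with at least 2 probes, the dimmer probes had the direction of the brightest probe in 72.2% of cases (1452 of 2010). Where the brightest probe passed the unadjusted threshold, this share was 88.1% (89 of 101), and 34.7% of these dimmer probes passed it in the same direction. Where the brightest probe did not pass, 3.67% of the dimmer probes did so in its direction. Such agreement bears on the measurement of these 5 RNA samples, which the probes share, and not on the number of rats.

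The likeness of the rats was described over the 18130 probes well above background on all 5 arrays. XH1 and XH3 differed at least 2-fold in 5.52% of these probes. The sham rats differed more among themselves, in 9.96% of probes for C1 and C3, 7.68% for C2 and C3 and 18.0% for C1 and C2. The closest pair of all 10 was a sham rat with a blast rat, C3 and XH3, at 1.97%, and C3 and XH1 differed in 6.21%. C1 and C2 were further from the blast rats, at 10.4% and 12.7% for C1 and 17.5% and 8.74% for C2 against XH1 and XH3. The follicle profiles of the 2 groups were thus not separated as a whole.

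Row and column on the slide were read from the digits that end the names of the array scans. Columns 1 and 2 were taken as the left side of the slide and columns 3 and 4 as the right. So read, C3, XH1 and XH3 lay in the same row, while C1 and C2 lay in the other row. The comparison of blast with all sham rats is then in part also one between rows. With the row as a block, which compares the 200 kPa rats with C3 within row 2, 1098 probes passed the unadjusted threshold and 0 the adjusted one, and the majority turned from higher to lower, with 469 higher (42.7%) and 629 lower, against 64.3% higher without the block. Row 1 held no 200 kPa rat and gives no value of its own. Within row 2, the 200 kPa rats differed from C3 by -0.59 for Stat5a, -0.60 for Serpina1, 0.32 for Triap1, 0.71 for Arpc4 and 0.88 for Pea15a. These directions follow from the lack of overlap between the groups. None of the 5 passed the unadjusted threshold in this fit, which has only C3 to set against the blast rats. For NM_057103 and ENSRNOT00000051732, the differences from C3 were 1.14 and 1.47, smaller than those against all sham rats, and for NM_001109578 the difference from C3 was -3.92. These 3 accessions no longer passed the unadjusted threshold with the row as a block, while NM_001008874, at -4.46, did. Row and blast could be parted only as far as C3 stands for the sham group. The side of the slide held rats of both groups, and with it as a block 3154 probes passed the unadjusted threshold, 2017 higher and 1137 lower, and 0 the adjusted one.

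The balance of directions also depended on the scaling. With each array scaled to its 75th percentile in place of quantile normalization, 1328 probes passed the unadjusted threshold (4.37%) and 0 the adjusted one. Of the 1328, 670 were higher (50.5%) and 658 lower. The 9 genes kept their directions under this scaling, and Arpc4 (0.56) and Triap1 (0.39) no longer passed the unadjusted threshold. An excess of higher over lower probes at 200 kPa was therefore not seen under every setting.

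**Figure D3:**
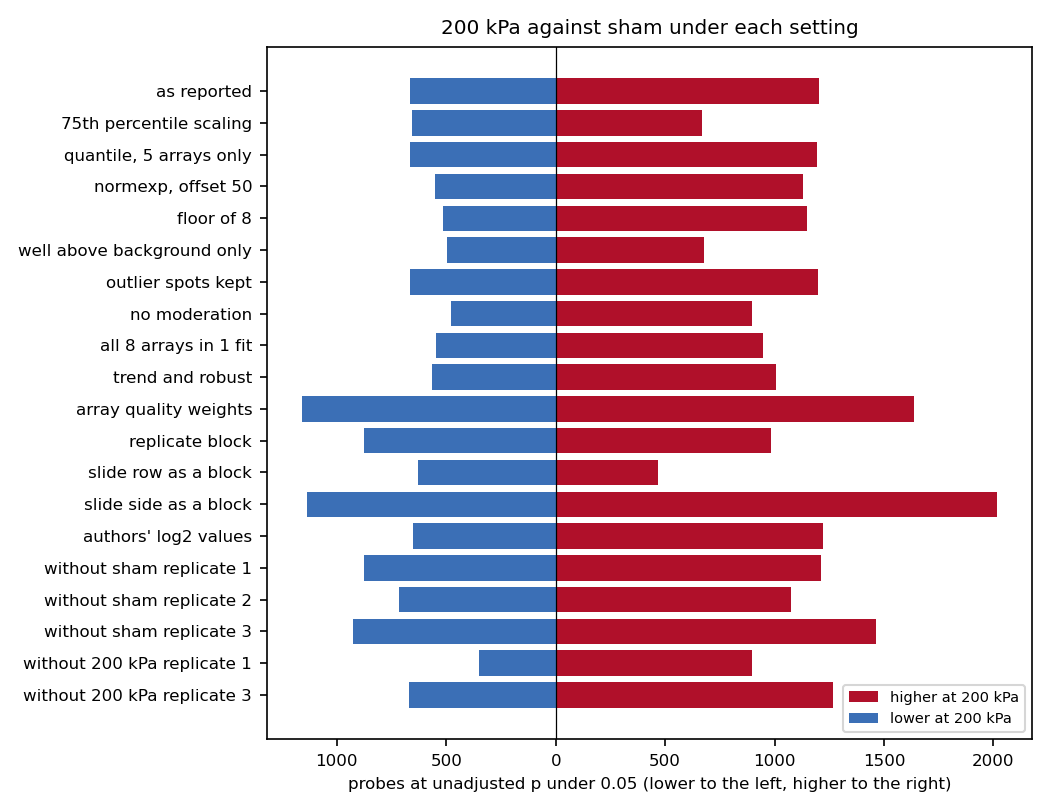
Probes that passed the unadjusted threshold of 0.05 (number on the horizontal axis, lower at 200 kPa to the left of 0 and higher to the right) as reported and under each alternative setting (vertical axis). The higher probes outnumber the lower ones 1202 to 667 as reported, are level at 670 to 658 with scaling to the 75th percentile, and are outnumbered 469 to 629 with the slide row as a block.

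The 200 kPa rats were set directly against the 145 kPa rats, the other pair of blast rats, to see where the higher pressure differed from the lower one. Of 30251 probes, 1263 passed an unadjusted p under 0.05 (4.18%), 799 higher and 464 lower at 200 kPa, and 0 passed after adjustment, with a smallest adjusted p of 0.938. None of the 9 genes passed the unadjusted threshold in this comparison. Pea15a, at 5.51 and 5.74 in the 145 kPa rats, differed by 0.00 (SE 0.18) between the pressures, and Serpina1 by -0.12 (SE 0.17). For Stat5a the difference was 0.25 (SE 0.31), for Arpc4 0.14 (SE 0.22) and for Triap1 0.07 (SE 0.19). These errors leave room for differences between the pressures as large as several of those from sham. Against the same sham rats, the 145 kPa rats differed by -0.94 (SE 0.27) for Stat5a, -0.88 (SE 0.26) for Serpina1, 0.87 (SE 0.33) for Pea15a, 0.44 (SE 0.22) for Arpc4 and 0.33 (SE 0.18) for Triap1, and since both comparisons share the sham rats, their likeness is not independent evidence. Hbb read 17.38 and 13.27 at 145 kPa and 15.32 in H1, so the highest level was not at the highest pressure. The rat at 175 kPa, without a replicate, differed from the sham mean by -0.34 for Stat5a, -0.39 for Serpina1, 0.57 for Pea15a, 0.47 for Arpc4 and 0.12 for Triap1.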

How the data were processed

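Total RNA of whisker follicles was labelled with Cy3 and hybridized to SurePrint G3 Rat 8x60K arrays, 1 per rat, on 1 slide. The authors deposited the intensity of each spot from Agilent's Feature Extraction software (10.7.1.1 in the file headers), with the background subtracted, and a table of log2 values quantile normalized over the 8 arrays, each column of which correlated with log2 of its array's intensities at 0.999 or more. Controls and flagged outlier spots were removed, the intensities of the remaining spots of a probe (1, 2 or 10 per array) were averaged on the log2 scale, and the 8 arrays were quantile normalized with a floor of 3, below which no deposited intensity lay.

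Groups were taken from the labelled pressures. The 200 kPa rats were compared with sham, and with the 145 kPa rats, by lmFit and eBayes of limma 3.58.1 (R 4.3.3) over the arrays compared, two-sided, over probes with at least 2 values in each group, with Benjamini-Hochberg adjustment over all probes tested. At 200 kPa against sham, 30339 probes had a value on all 5 arrays and the rest were fitted without the missing value. The fit at 200 kPa against sham was tested on simulated data with independent probes, and the steps before it and the alternatives were not.

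Accessions of 0 of the 30367 probes matched the gene table of the Rattus rattus assembly Rrattus_CSIRO_v1. The labels name that species and the study Rattus norvegicus, and a gene table of the latter was not used here. Symbols were therefore taken from the study's primer list, of which 1 gene is not reported here, and the brightest probe stood for a gene. The rule for other names asked for the 12 largest rises and falls among probes well above background on every array of a group, without overlap and at an unadjusted p under 0.05 where fewer than 24 passed the adjusted threshold; as the probes have no symbols, the 2 largest of each were given by accession. Of 40 lists of pathway genes and cell type markers, 31 had no member that could be named, and only the qPCR list had more than 1; the others were not analysed here as lists. The members and lists were chosen with earlier results of these data known.

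The alternatives were scaling to the 75th percentile, quantile normalization over the arrays compared, normexp with an offset of 50 on the median signal, a floor of 8, only probes well above background, outlier spots kept, the methods' one-way analysis of variance, all 8 arrays in 1 fit, eBayes with trend and robust, array weights, the title number, slide row or slide side as a block, the authors' log2 values, and each rat left out.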

Additional observations from a re-analysis of the deposited data

Results flagged for a closer look

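For NM_001008874, whose gene could not be named, the rats of the 2 blast pressures lay on opposite sides of the sham mean of 12.23. Both 200 kPa rats were below it, at 8.98 and 8.87, and both 145 kPa rats above it, at 13.78 and 12.38. The difference of 200 kPa minus 145 kPa was -4.15 on the log2 scale (SE 0.57), and it did not pass in limma over all probes (adjusted p = 0.938). The sham rats read 12.77, 10.53 and 13.38, so the 145 kPa rats overlapped with them, and H1 read 13.09. A cause was not tested.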

How the results depend on the processing

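The number of rats, 3 and 2, limits every comparison. After adjustment, 0 probes passed at 200 kPa against sham as reported and under 18 of 19 alternatives, and with a floor of 8 on the intensities 6 passed, all higher. In each of these 6 all sham rats lay at the floor, which leaves that group no spread, and without it their adjusted p lay between 0.654 and 0.764. The count of 1869 probes at an unadjusted p under 0.05 moved by over 1.5 times to 1176 with only probes well above background, for which fewer probes were tested, to 1098 with the slide row as a block and to 3154 with the slide side as a block. The count of 1349 probes that were also at least 1.5-fold moved to 648 with normexp, to 845 with the floor of 8, to 736 with the methods' one-way analysis of variance and to 2163 with the side as a block. The causes of the moves with normexp, row and side were not tested. With each rat left out, these counts ranged from 1249 to 2386 and from 1102 to 1997, and 0 passed after adjustment in each; a rat left alone in its group is assumed to vary like the others. At 200 kPa against 145 kPa, 0 probes passed under each of 17 alternatives, the rats left out included.

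The titles share the numbers 1 and 3 between sham and 200 kPa, but nothing says that these mark a pairing. Deviations from the group means correlated across probes at 0.469 for C1 with XH1 and at -0.015 for C3 with XH3, and, with unlike numbers, at 0.506 for C2 with XH3. These values are not independent, since the deviations of 2 rats are opposites and those of the sham rats sum to 0, and nothing is read from them. With the number as a replicate block, 1861 probes passed the unadjusted threshold, 985 higher and 876 lower, and 1535 of them were at least 1.5-fold; 0 passed after adjustment. Only 800 of the 1861 were also among the 1869 without the block. Between 200 kPa and 145 kPa this block leaves no residual degrees of freedom and was not run.

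For the 9 genes and 4 accessions, none of 247 refits (13 values under 19 alternatives) turned a direction, but much of this was fixed in advance. The analysis of variance, the joint fit of all arrays, eBayes with trend and robust, and the background filter left every difference unchanged. For the values without overlap, the direction was also fixed where rats were left out, C3 stood alone or arrays were weighted. The same held with the title number or slide side as a block. In all, 60 refits lost the unadjusted call and 3 gained it. The lowest adjusted p of these genes and accessions under any alternative was 0.337. Of the 1869 probes, 499 also passed with the row as a block and 971 with scaling to the 75th percentile. The median difference of the 9 qPCR genes was -0.30, against 0.008 over all probes. These genes were chosen on the same arrays and went both ways, 4 higher and 5 lower, so nothing is read from this contrast. By rat, their median deviation from the sham mean was 0.19, -0.14 and -0.1 in C1, C2 and C3 (SD 0.18). It was -0.19 in XH1 and -0.21 in XH3. The median difference lay between -0.37 and -0.19 with each rat left out. It was -0.33 with scaling to the 75th percentile and -0.31 with normalization over the 5 arrays. With normexp, or with the mean over all probes of a gene, it was -0.18. Medians of the other lists were not run, since at most 1 gene of each could be named.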
